A study of Homo sapiens with 18 samples.

Results

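Heat shock proteins and chaperones are described here by 10 genes, taken as the rows of a gene count table whose symbols are HSPA1A, HSPA1B, HSPA8, HSPH1, HSP90AA1, HSP90AB1, DNAJB1, DNAJA1, HSPD1 and HSPE1. The table holds 58735 genes, each of the 10 has 1 row in it, and all 10 passed the filter on low counts together with the rest of the 20301 genes tested. RNA came from OCI-Ly18, an established line of human DLBCL (diffuse large B-cell lymphoma) that carried green fluorescent protein and had been grown under the skin of immunodeficient NSG mice. From day 3 after implantation the mice received either vehicle (mice M_766, M_769 and M_770) or tazemetostat, also called EPZ6438, at 150 mg/kg daily by oral gavage (mice M_767, M_768 and M_774, the treated mice below) for 14 days. Tazemetostat inhibits EZH2, the histone methyltransferase of the Polycomb repressive complex. All 6 mice were then given CART19 cells, T cells carrying a chimeric antigen receptor, and 11 days later the tumours were made into single cells, from which the fluorescent ones were sorted. Tumour cells from mice without CART19 cells were not analysed here, so nothing below separates the drug from the drug together with the infused cells. The model is a single cell line in mice that lack lymphocytes of their own, and neither the age and sex of the mice nor any drug dosing after the infusion is stated.

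Each mouse gave 3 libraries, lettered A, B and C, of 16124494 to 26336269 counts. They were summed to 1 value per mouse, which left n = 3 mice per group. Library M_768_C of the tazemetostat group stood apart from its partners, with a scaling factor of 0.901 against 0.978 to 1.03 in the vehicle group. Results of the members that rest on it are given with and without it as far as computed, while levels of other genes include it. This library also had 19.95% of its counts in the 50 most abundant genes, where the libraries of vehicle mouse M_766 had 18.6% to 19.0% and the other 14 had 16.2% to 17.2%. The B-cell markers MS4A1, CD79A, CD79B, PAX5, CD22, CR2 and BLNK had counts in every mouse, as did some markers of other cells, so levels are compared below. Levels are given as CPM, counts relative to the TMM-scaled library total. MS4A1, which encodes the B-cell surface protein CD20, was at 314 ± 71.0 CPM in vehicle mice and 382 ± 7.61 CPM in treated mice, and BLNK, an adaptor of the B-cell receptor, at 59.8 ± 3.75 and 68.2 ± 1.27 CPM (SD, n = 3 mice). The T-cell markers CD3D and CD3G, the myeloid marker FCGR3A and the stromal and endothelial markers COL3A1 and CDH5 had no count in any mouse. Others had counts in every mouse, among them CD3E, CD5, TRAC, TRBC1, LYZ, COL1A2 and PECAM1. TRAC, with 2105 counts in vehicle and 2440 in treated mice, exceeded the B-cell marker CR2, with 584 and 590. A list of 8 B-cell markers summed to 2601 to 3034 CPM in vehicle mice and 2726 to 2789 CPM in treated mice. In all, 12 T-cell markers summed to 117 to 150 CPM against 109 to 134 CPM, most of it from TRBC2 (115 ± 19.4 CPM in vehicle, SD, n = 3 mice), while 6 myeloid markers summed to 1.06 to 1.36 CPM against 1.05 to 1.47 CPM and 7 stromal and endothelial markers to 2.39 to 5.96 CPM against 3.60 to 5.33 CPM. CD8A, of cytotoxic T cells, was at 1.51 ± 0.102 against 1.36 ± 0.106 CPM, and the myeloid markers CD14 and CSF1R were at 0.768 ± 0.0886 against 0.615 ± 0.205 CPM and 0.327 ± 0.134 against 0.4005 ± 0.0567 CPM. Of the stromal markers, COL1A1, a collagen, was at 0.227 ± 0.0494 against 0.282 ± 0.0830 CPM, and PDGFRB, a receptor of stromal cells, at 0.123, 0.274 and 0.344 CPM in vehicle mice and 0.775, 0.656 and 0.424 CPM in treated mice, without overlap (edgeR log2 fold change 1.34, SE 0.406, adjusted p = 0.496). The mean log2 CPM of the stromal and endothelial list was -1.21, -0.58 and -0.29 in vehicle mice and -0.07, -0.20 and -0.59 in treated mice, so M_766 was lowest and M_774 the lowest of its group, as for the members below. These genes had 43 and 123 counts (PDGFRB) and 40 and 56 counts (COL1A1) over 3 mice a group, and their part in the members' difference was not tested. Mitochondrially encoded genes took 4.75% to 5.502% of the counts of a tazemetostat library and 4.85% to 5.35% of a vehicle library. In bulk RNA, fewer cells with a transcript and less of the transcript per cell cannot be told apart.

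Chaperones bind unfolded or partly folded proteins and keep them from aggregating. In the cytosol, HSP70 proteins take up a client that a J-domain (HSP40) protein delivers, a nucleotide exchange factor such as an HSP110 protein releases it, and many clients then pass to HSP90. In mitochondria HSP60 and its lid HSP10 form a folding chamber. When unfolded protein accumulates, the transcription factor HSF1 is released to bind heat shock elements, which are inverted repeats of the unit nGAAn, in the promoters of these genes. Some members are made all the time and others are strongly induced, and lymphoma cells often hold high levels of HSP90 and HSP70.

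The promoters are shown first, because the members differ in their exact matches to the heat shock element. The RefSeq promoter table (GRCh38.p14) gave a window of 250 bases before to 50 after each annotated start for 10 of the 10 members. It was searched on both strands for 2 inverted units (GAANNTTC or TTCNNGAA) and for 3 (GAANNTTCNNGAA or TTCNNGAANNTTC); every match to 3 units also contains matches to 2. The 2-unit form was found in 13.5% of all 35116 windows and in those of 8 members, all but HSPH1 and HSPE1. The 3-unit form was found in 0.490% of all windows and in those of 5 members: DNAJA1, HSP90AA1, HSP90AB1, HSPA8 and HSPD1. The nearest RefSeq starts of HSPD1 and HSPE1 lie 105 bases apart on opposite strands. The HSPD1 matches to both forms lie past the downstream edge of the HSPE1 window. The lack of a match for HSPE1 therefore depends on where its window ends. Neither HSPA1A, HSPA1B nor DNAJB1, the members with the largest differences below, has an exact match to 3 units in these windows. Only exact letters were searched, so an element with a unit that differs by any letter was not counted. In the stretches below, the bases after the HSPA1A and HSPA1B match, ccgac, and after the first DNAJB1 match, tggag, come close to a further unit. The lack of a match therefore does not show that these members lack a 3-unit element. A TATA motif (TATAAA or TTTATA, 11.5% of windows) was found for HSPA1A and HSPA1B and for no other member, and a CCAAT motif (CCAAT or ATTGG, 34.6% of windows) for HSPA1A, HSPA1B, HSPA8, HSP90AA1 and DNAJB1. These shares count windows, while a member counts if any of its windows matches, so the 2 are not on the same scale. HSP90AA1 and HSPD1 have 2 windows each, and HSP90AB1 and DNAJB1 have 3 each. A match describes letters in a window and shows no binding.

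Upstream stretches of 4 members follow, from the 150 bases before a RefSeq start, keeping bases that lie in no GENCODE 29 exon. Capitals mark matches to the 2-unit element, which overlap each other in HSP90AB1. HSPA1A and HSPA1B are shown because they are near-copies, DNAJB1 because it has 2 separate elements, and HSP90AB1 because it carries the 3-unit form yet differed least between the groups. The stretches lie at chr6:31815393-31815463 (plus strand), chr6:31827588-31827734 (plus strand), chr19:14518421-14518547 (minus strand) and chr6:44247793-44247865 (plus strand). DNAJB1 and HSP90AB1 have 3 RefSeq starts each, and the start with a match before it was used.
HSPA1A: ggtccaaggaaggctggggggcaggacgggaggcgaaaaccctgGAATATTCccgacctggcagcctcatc
HSPA1B: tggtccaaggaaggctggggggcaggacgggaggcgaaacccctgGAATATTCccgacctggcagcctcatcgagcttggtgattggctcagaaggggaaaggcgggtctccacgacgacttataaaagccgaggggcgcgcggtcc
DNAJB1: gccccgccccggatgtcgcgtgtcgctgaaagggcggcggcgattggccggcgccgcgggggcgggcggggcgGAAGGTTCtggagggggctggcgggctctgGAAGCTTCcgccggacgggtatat
HSP90AB1: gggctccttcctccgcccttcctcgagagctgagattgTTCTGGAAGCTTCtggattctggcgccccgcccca

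The HSPA1A and HSPA1B promoter windows are identical at 277 of 299 aligned positions (92.6%), and both carry the same element, GAATATTC. The element begins 106 bases before the HSPA1A start and 105 before the HSPA1B start. In DNAJB1 the elements begin 77 and 47 bases before the start shown.

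HSPA1A and HSPA1B encode the stress-inducible HSP70 and lie on chromosome 6 at 31815464 to 31817946 and 31827735 to 31830255, plus strand (GENCODE 29 coordinates, hg38, for every gene model below), with 9788 bases between them. HSPA1A stood at 1.60, 5.41 and 6.14 CPM in vehicle mice M_766, M_769 and M_770 and at 13.3, 12.8 and 9.74 CPM in treated mice M_767, M_768 and M_774. The groups did not overlap, and vehicle mouse M_766 was far below the other vehicle mice. The mean was 4.38 ± 2.43 CPM in vehicle mice and 11.9 ± 1.91 CPM in treated mice (SD, n = 3), 2.72 times as much, and the log2 fold change of 1.45 (SE 0.370) did not pass the test across all genes (edgeR adjusted p = 0.401). HSPA1B stood at 24.2, 84.5 and 79.4 CPM in vehicle mice and 146, 200 and 110 CPM in treated mice, again without overlap and with M_766 lowest. Its means were 62.7 ± 33.4 and 152 ± 45.02 CPM, and its log2 fold change was 1.28 (SE 0.379, edgeR adjusted p = 0.483).

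These 2 rows are not independent. Of the windows of 100 bases along the HSPA1A transcript, 69.9% occur unchanged in HSPA1B, so the authors' counting could have split or lost reads between them, and the rule it used for such reads is not given in the sources used here. HSPA1A took 5.9997% to 8.33% of the counts of the pair in each mouse. With both rows merged, the level was 25.8, 89.9 and 85.5 CPM in vehicle mice and 159, 213 and 120 CPM in treated mice (edgeR log2 fold change 1.29, SE 0.377, adjusted p = 0.477). Because the groups did not overlap in either row, the merged level had to separate them too. It mostly repeats HSPA1B, and merging cannot restore reads that the counting lost. HSPA1B also shares 920 exon bases with AL671762.1, a processed transcript on the same strand.

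HSPA8 encodes HSC70, the constitutive HSP70 of the cytosol (chromosome 11, 123057489 to 123063230, minus strand). Its exons share 88 bases with SNORD14C and 87 with SNORD14D, snoRNA genes on the same strand. Its level was 1149, 1341 and 1549 CPM in vehicle mice and 1710, 1518 and 1467 CPM in treated mice. Vehicle mouse M_770 lay above tazemetostat mice M_768 and M_774, so the groups overlapped. The means were 1346 ± 200 and 1565 ± 128 CPM (SD, n = 3; edgeR log2 fold change 0.22, SE 0.126, adjusted p = 0.835). Per length, the inducible pair was 0.0433, 0.129 and 0.106 times as abundant as HSPA8 in vehicle mice and 0.180, 0.270 and 0.158 times in treated mice, and this ratio did not overlap between the groups. The length used for HSPA8 is the union of its exons, 4849 bases, and with a transcript of 2463 bases the ratios were 0.022, 0.0656 and 0.054 against 0.0912, 0.137 and 0.0801, which also did not overlap.

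DNAJB1 encodes the main stress-inducible J-domain partner of HSP70 (chromosome 19, 14514770 to 14529770, minus strand). Its exons share 211 bases with TECR and 98 with MIR639 on the opposite strand, so its level is uncertain if counting ignored strand. It stood at 89.0, 144 and 144 CPM in vehicle mice and 218, 354 and 175 CPM in treated mice, with no overlap. Mouse M_768 was highest by a wide margin, and its 3 libraries agreed on this, with 339, 363 and 377 CPM in A, B and C. The means were 126 ± 31.9 and 249 ± 93.6 CPM (SD, n = 3), the latter 1.98 times the former (edgeR log2 fold change 0.99, SE 0.250, adjusted p = 0.401). DNAJA1, a J-domain protein made in most cells (chromosome 9, 33025211 to 33039907, plus strand), stood at 334, 367 and 417 CPM against 475, 487 and 420 CPM. It too did not overlap, but vehicle mouse M_770 and tazemetostat mouse M_774 differed by less than 4 CPM. Its means were 372 ± 41.7 and 461 ± 35.6 CPM (edgeR log2 fold change 0.31, SE 0.109, adjusted p = 0.633).

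HSPH1 encodes HSP105, an HSP110 protein that exchanges the nucleotide of HSP70 (chromosome 13, 31134974 to 31162388, minus strand). It stood at 173, 223 and 245 CPM in vehicle mice and 292, 345 and 217 CPM in treated mice. Tazemetostat mouse M_774 lay below vehicle mice M_769 and M_770, so the groups overlapped. The means were 214 ± 36.9 and 285 ± 64.4 CPM (SD, n = 3; edgeR log2 fold change 0.42, SE 0.171, adjusted p = 0.707).

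HSP90AA1 and HSP90AB1 encode the inducible and the constitutive cytosolic HSP90 (chromosome 14, 102080738 to 102139699, minus strand, and chromosome 6, 44246166 to 44253888, plus strand). HSP90AA1 shares 197 exon bases with WDR20 on the opposite strand, which could add to its level if counting ignored strand. HSP90AA1 stood at 1406, 1632 and 2035 CPM in vehicle mice and 2134, 2334 and 1761 CPM in treated mice. HSP90AB1 stood at 2449, 2679 and 3345 CPM in vehicle mice and 3017, 3164 and 2875 CPM in treated mice. Both overlapped, and for HSP90AB1 the highest of the 6 mice was vehicle mouse M_770. The log2 fold changes were 0.30 (SE 0.152, edgeR adjusted p = 0.806) for HSP90AA1 and 0.10 (SE 0.129, edgeR adjusted p = 0.945) for HSP90AB1, the smallest of the 10. Per length, HSP90AA1 was 0.326, 0.346 and 0.345 times as abundant as HSP90AB1 in vehicle mice and 0.402, 0.419 and 0.348 times in treated mice, which did not overlap but left M_774 close to the vehicle values.

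HSPD1 and HSPE1 encode the mitochondrial HSP60 and HSP10 and are read in opposite directions from neighbouring starts on chromosome 2 (197486581 to 197516737, minus strand, and 197499994 to 197503457, plus strand). The HSPE1 model lies inside the HSPD1 model and shares 281 exon bases with it on the opposite strand, so both levels are uncertain if counting ignored strand. HSPE1 also shares 192 exon bases with the read-through gene HSPE1-MOB4 on the same strand, so its level is uncertain with either strand setting. HSPD1 stood at 927, 927 and 1102 CPM in vehicle mice and 1102, 1216 and 1034 CPM in treated mice. HSPE1 stood at 68.4, 76.4 and 91.6 CPM in vehicle mice and 101, 121 and 90.8 CPM in treated mice. In each, vehicle mouse M_770 lay within the tazemetostat range, and the log2 fold changes were 0.18 (SE 0.111, edgeR adjusted p = 0.844) and 0.40 (SE 0.133, edgeR adjusted p = 0.581).

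**Figure D1:**
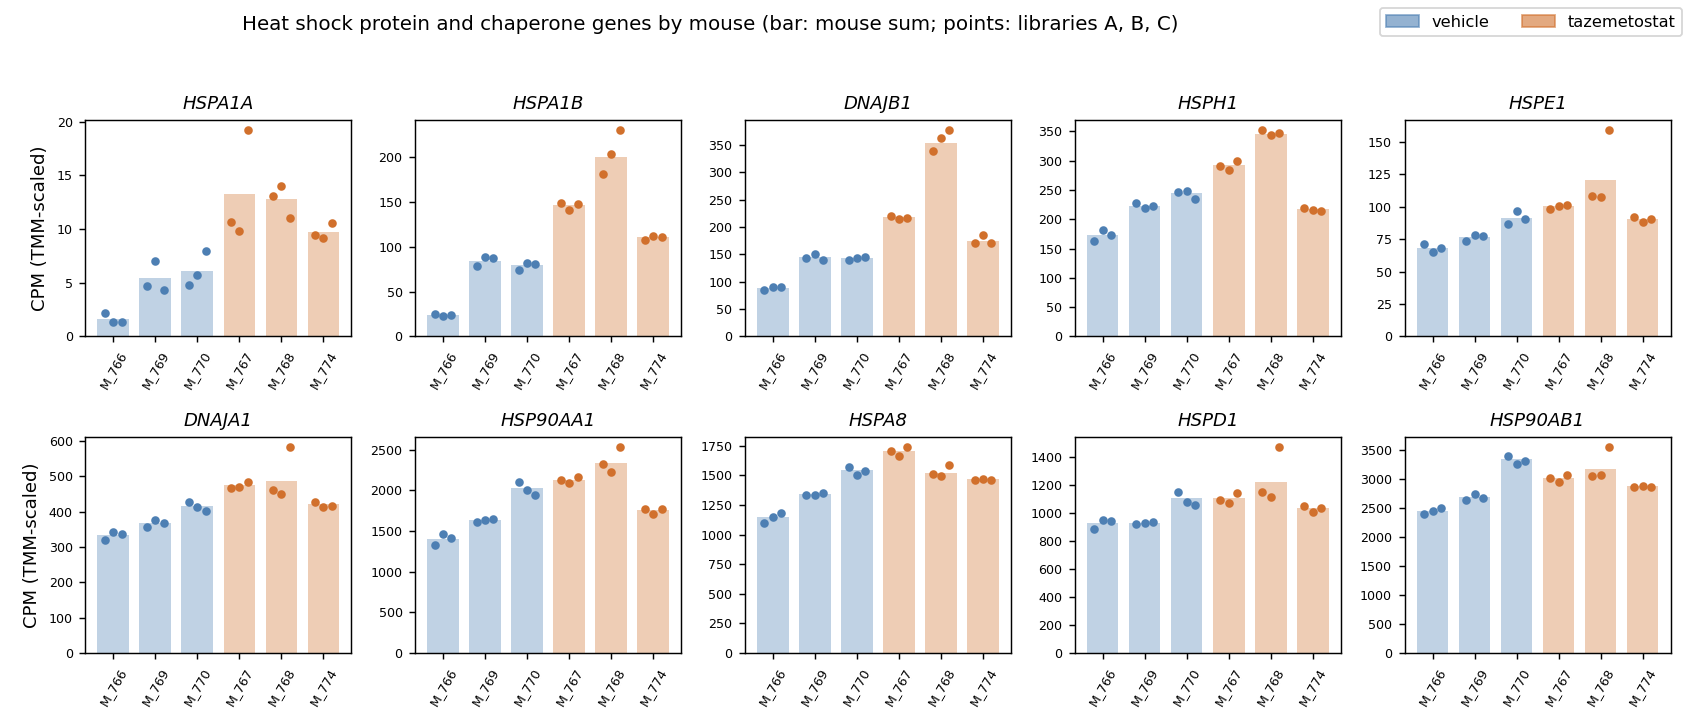
Level of the 10 members in CPM scaled with TMM factors (y axis, from 0) in each of 6 mice (x axis); bars are the mouse sums and points the 3 libraries of a mouse, blue for vehicle and orange for tazemetostat. M_766 is the lowest mouse in all 10 panels, the groups do not overlap for HSPA1A, HSPA1B, DNAJB1 and DNAJA1, and library M_768_C lies above its partners for HSPE1, DNAJA1, HSPD1 and HSP90AB1.

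Over the 10 members, 10 log2 fold changes were above 0, with a median of 0.35. Among all tested genes 48.1% were above 0 and the median was -0.01. At an adjusted p under 0.05, 0 members were called, where 0.0345% of all tested genes (7 of 20301) were. At an unadjusted p under 0.05, 6 members (HSPA1A, HSPA1B, HSPH1, DNAJB1, DNAJA1 and HSPE1) were higher in treated mice, against 3.34% of all genes. All 3 tazemetostat mice lay above all 3 vehicle mice for 4 members, against 6.58% of all genes. The 5th to 95th percentile of all tested genes ran from -0.52 to 0.41, and HSPA1A, HSPA1B, DNAJB1 and HSPH1 lay above it. Genes with a mean of at least 10 CPM spread less, with a 95th percentile of 0.24, and 6 of the 9 members at that level (HSPA1B, DNAJB1, HSPH1, HSPE1, DNAJA1 and HSP90AA1) lay above it. Sums over mice took 0.769% ± 0.122 of counts for the 10 members in vehicle mice and 0.905% ± 0.0803 in treated mice (SD, n = 3). The groups overlapped, with vehicle mouse M_770 at 0.894% above tazemetostat mouse M_774 at 0.814%.

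Other fits differed on whether members were called, though in none was any member's fold change below 0. DESeq2 called 0 members, where it called 0.458% of genes higher. A limma-voom fit of all 18 libraries, in which the mouse was a random term, called HSPA1A, HSPA1B, DNAJB1 and DNAJA1, where it called 0.837% of genes higher. It assumes 1 correlation of 0.354 between libraries of a mouse for every gene, while HSPA1B and DNAJB1 vary between mice over 8 times as much as within them, and limma-voom on the 6 mouse sums called 0 members. Testing without the filter on low counts called HSPA1A, HSPA1B, HSPH1, DNAJB1 and HSPE1 among 0.443% of genes higher. That fit had infinite prior degrees of freedom, against 6.41 with the filter, so a gene's own spread between mice no longer entered the test. The fold change of HSPA1B hardly differed (1.29 against 1.28) while its edgeR adjusted p was 1.56e-26 against 0.483, and these 5 calls carry no weight beside the main test. Leaving out mouse M_766 called HSPA1A (log2 fold change 1.06, edgeR adjusted p = 0.0314) where 0.0825% of genes were called higher.

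**Figure D2:**
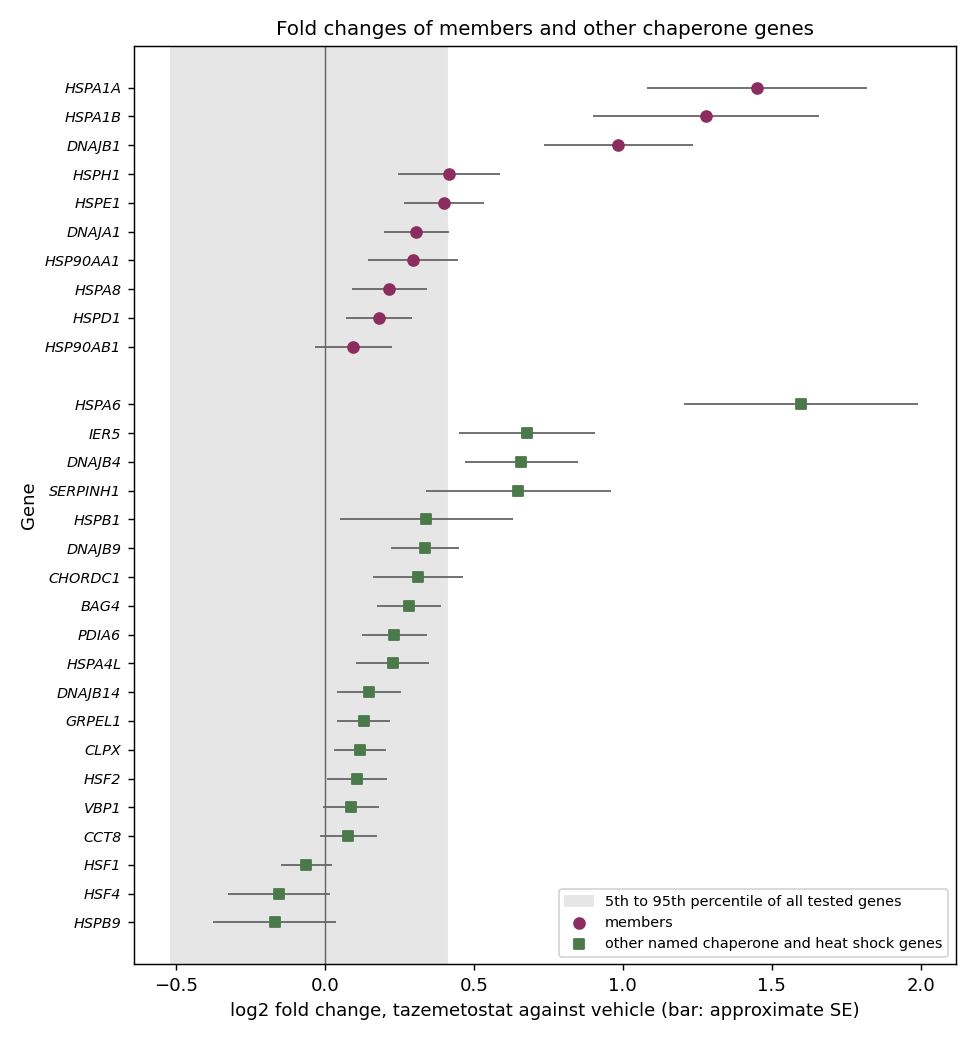
Log2 fold change of tazemetostat against vehicle mice (x axis) for the 10 members (circles) and for 19 other chaperone and heat shock genes (squares), with the approximate standard error as a bar and the 5th to 95th percentile of all tested genes shaded. HSPA1A, HSPA1B and DNAJB1 lie far to the right of the shading, as does HSPA6 among the others, and HSF1 lies just below 0.

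Mouse M_766 was the lowest of the 6 mice for 10 of 10 members, while it was the lowest for 27.5% and the highest for 26.9% of all tested genes, the largest share of any mouse at both ends. Without library M_768_C it was the lowest for 9 members, with HSPD1 a little lower in M_769 (927 against 935 CPM). Mouse M_768 was the highest for 7 members, M_767 for HSPA1A and HSPA8, and M_770 for HSP90AB1. Without library M_768_C the highest mouse of DNAJA1 was M_767 (476 CPM, against 461 CPM in M_768) and that of HSPA1A was M_768 (13.6 against 13.3 CPM). Without M_766 the median fold change of the members was 0.27 and that of HSPA1B was 0.90 (edgeR adjusted p = 0.102). Without M_768 the fold change of DNAJB1 was 0.64, against 0.99 with it, and the median was 0.26. Leaving out library M_768_C alone changed the members little: HSPE1 was at 0.34 in place of 0.40, DNAJA1 at 0.28 in place of 0.31, and the median was 0.31.

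How far the libraries of a mouse agreed differed between members. The standard deviation between mice of a group, on the log2 scale, was 8.88 times that between libraries of a mouse for DNAJB1 and 8.44 times for HSPA1B. It was 2.09 times for HSPA1A, the scarcest member, and it was 1.56 times for DNAJA1, 1.54 times for HSPE1 and 1.39 times for HSPD1, for which M_768_C was the highest library of its mouse. The highest library of a mouse over its lowest reached 1.29 times for DNAJA1, 1.48 for HSPE1 and 1.32 for HSPD1. Without M_768_C it reached 1.07, 1.11 and 1.09 times, near the 1.09 of DNAJB1. Ratios of standard deviations were not computed without that library. Vehicle mice differed among themselves by up to 3.83 times for HSPA1A and 3.48 times for HSPA1B, and by 1.62 times for DNAJB1. Treated mice differed by up to 1.36, 1.81 and 2.02 times for the same genes. For each of these 3 genes the widest gap within a group was larger than that between the group means, which was 2.72, 2.43 and 1.98 times.

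Members followed each other from mouse to mouse. Over the 18 libraries, Pearson's r between 2 members ran from 0.613 to 0.954 with a median of 0.857 (45 pairs), as a description only, since libraries share mice and the groups differ. DNAJA1 and HSPE1 were the most alike over the 18 libraries (0.954), but HSPA1A and HSPA1B were without M_768_C (0.956, against 0.940 for DNAJA1 and HSPE1) and over the 6 mouse means (0.980). Within mice, after each mouse's own mean was removed, the median r was 0.444, and it was 0.0973 without M_768_C. The mean log2 CPM of the 10 members was 7.54, 8.09 and 8.27 in vehicle mice and 8.59, 8.77 and 8.33 in treated mice, which placed M_770 and M_774 next to each other.

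Compared per length of the gene model, HSP90AB1 was the most abundant member, with 948 ± 156 CPM per kb in vehicle mice (SD, n = 3). Next came HSP90AA1 (322 ± 60.7), HSPA8 (278 ± 41.2) and HSPD1 (232 ± 23.8), where each overlapped its neighbour in the order over the 3 vehicle mice. DNAJA1 (136 ± 15.3) was apart from both neighbours. HSPE1 (39.9 ± 5.96), DNAJB1 (34.3 ± 8.67), HSPH1 (25.5 ± 4.40) and HSPA1B (24.9 ± 13.3) again overlapped in turn, and HSPA1A (1.76 ± 0.980) was the lowest, within the limits of its shared sequence. In tazemetostat mice the first 5 and the last kept their places, while DNAJB1 (67.8 ± 25.5) and HSPA1B (60.3 ± 17.9) stood above HSPE1 (52.6 ± 7.72) and HSPH1 (34.0 ± 7.68). The ranges of DNAJB1, HSPA1B and HSPE1 overlapped there, so their order was not larger than the spread between mice. With the length of 1 transcript per gene in place of the exon union, HSPA8 (547 CPM per kb) came before HSP90AA1 (482) in vehicle mice and the rest of that order was the same. By that length HSPA8 (635) also came before HSP90AA1 (591) in treated mice. There HSPE1 (95.5 to 127 CPM per kb over the mice) lay above HSPA1B (43.8 to 79.3) without overlap. The place of HSPA1B above HSPE1 thus depended on the length used.

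**Figure D3:**
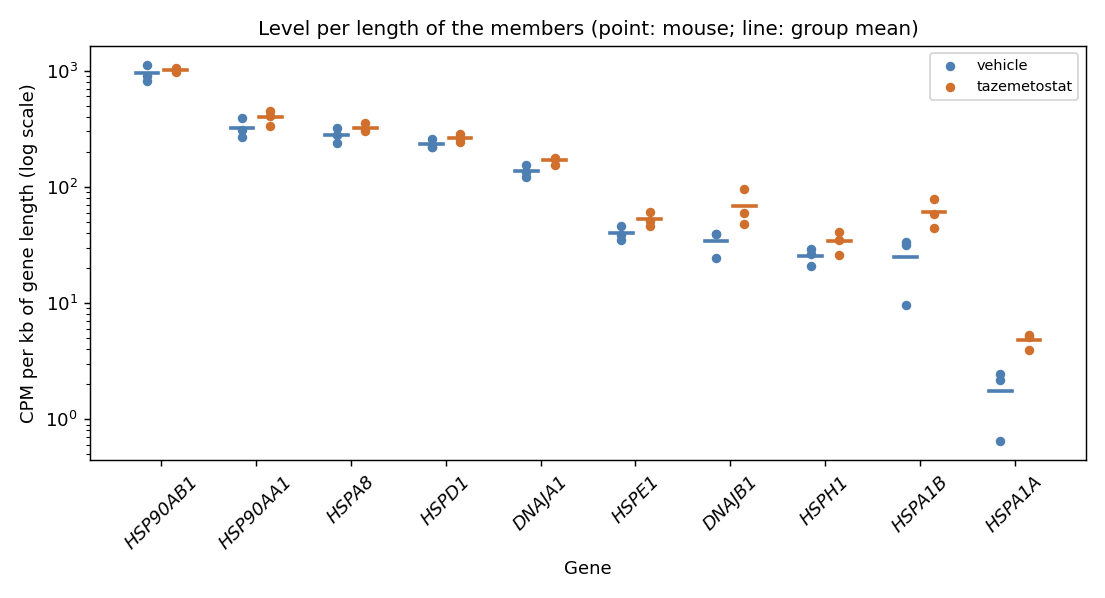
Level of each member in CPM per kb of gene length (log y axis), ordered along the x axis by the vehicle mean; points are mice, lines the group means, blue for vehicle and orange for tazemetostat. HSP90AB1 is highest in both groups, with means of 948 and 1013, and the inducible HSPA1B and DNAJB1 show the largest steps among the members above 20 CPM per kb.

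Ratios within pairs of related or partner proteins were compared in the same way. DNAJB1 was 0.198, 0.293 and 0.257 times as abundant per length as DNAJA1 in vehicle mice and 0.341, 0.541 and 0.309 times in treated mice. HSPE1 was 0.159, 0.177 and 0.178 times as abundant as HSPD1 against 0.196, 0.213 and 0.189 times. Neither ratio overlapped between the groups. HSPH1 over HSPA8 did overlap, at 0.0870, 0.0962 and 0.0915 against 0.0988, 0.132 and 0.0856. No test was made of these ratios, which with 3 mice against 3 cannot reach a two-sided exact permutation p below 0.1.

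The regulators and other chaperones were read from lists chosen by function. HSF1, the master regulator of the heat shock response, stood at 242 ± 10.8 CPM in vehicle mice and 231 ± 4.68 CPM in treated mice (SD, n = 3; edgeR log2 fold change -0.06, SE 0.0842, adjusted p = 0.947). HSF2, a second heat shock factor, was at 35.03 ± 3.76 and 37.8 ± 1.502 CPM, and HSF4 at 4.01 ± 0.673 and 3.60 ± 0.294 CPM. Both overlapped between the groups, and of the 4 genes of the heat shock factor list 2 were above 0 and 2 below. Their transcript level says nothing of the factors' activity.

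HSPA6, a strictly stress-inducible HSP70, had the smallest p among the other HSP70 and HSP110 genes. It was at 16.5, 40.8 and 39.6 CPM in vehicle mice and 83.2, 157 and 53.0 CPM in treated mice (edgeR log2 fold change 1.60, SE 0.393, adjusted p = 0.381), with the same lowest and highest mouse as HSPA1B. Of the 10 tested rows of that list, 6 were above 0 and the median was 0.04. HSPA4L, an HSP110 protein, was second by p with 30.1 ± 4.57 against 35.2 ± 3.07 CPM, and it overlapped.

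Among the 15 other J-domain genes 11 were above 0, with a median of 0.05. DNAJB4, a relative of DNAJB1, was at 8.94, 9.36 and 9.29 CPM against 12.6, 19.7 and 11.3 CPM without overlap (edgeR log2 fold change 0.66, SE 0.190, adjusted p = 0.472), and DNAJB14, which sits in the endoplasmic reticulum membrane, was at 35.8 ± 4.50 against 39.7 ± 1.93 CPM. Of the 21 cochaperones of HSP70 and HSP90, 12 were above 0 (median 0.06). BAG4, of the BAG family of HSP70 nucleotide exchange factors, was at 18.1 ± 1.92 against 22.0 ± 1.08 CPM, and CHORDC1, an HSP90 cochaperone, at 53.3 ± 11.1 against 66.2 ± 8.93 CPM. Of 10 small heat shock proteins 3 could be tested, among them HSPB1 (HSP27) and HSPB9. HSPB1 was at 20.7 ± 3.24 against 26.2 ± 13.9 CPM with M_768 alone high at 41.96 CPM, a level not computed without library M_768_C. HSPB9 was at 1.22 ± 0.0348 against 1.09 ± 0.101 CPM.

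Of 6 other heat-inducible genes, 5 were above 0 (median 0.19). IER5, a target of HSF1 that also promotes its activity, was at 47.7, 69.1 and 70.0 CPM against 87.5, 140 and 71.3 CPM (edgeR log2 fold change 0.68, SE 0.227, adjusted p = 0.589), with M_774 barely above the vehicle mice. SERPINH1, the collagen chaperone HSP47, was high in M_768 alone, at 17.2 CPM against 5.88 to 7.73 CPM elsewhere. Its level in M_768 was not computed without library M_768_C.

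Chaperones of other compartments and the chaperonin stayed close to all genes. The 16 chaperones of the endoplasmic reticulum had a median of 0.08 with 11 above 0. DNAJB9, a J-domain partner of BiP, was at 9.99 ± 0.460 against 12.6 ± 0.939 CPM without overlap (edgeR log2 fold change 0.34, SE 0.115, adjusted p = 0.589), and PDIA6, a disulfide isomerase, at 182 ± 25.3 against 214 ± 11.5 CPM. The 10 mitochondrial chaperones and proteases had a median of 0.05, with GRPEL1 (the exchange factor of mitochondrial HSP70) at 48.0 ± 2.76 against 52.6 ± 2.45 CPM and CLPX (a protein-unfolding ATPase) at 68.1 ± 4.87 against 74.0 ± 1.76 CPM. The 14 subunits of TRiC, the cytosolic chaperonin, and of prefoldin had 7 above and 7 below 0 with a median of 0.01, and VBP1 (prefoldin) and CCT8 (TRiC) overlapped between the groups. In each list of regulators and chaperones edgeR called 0 genes, and an unadjusted p under 0.05 was reached by HSPA6, DNAJB4, BAG4, IER5 and DNAJB9, 1 gene in each of 5 lists. These are 5.05% of the 99 rows tested over 9 lists, near the 3.34% of all genes that were higher at that p, and no result about the lists is drawn from them.

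**Figure D4:**
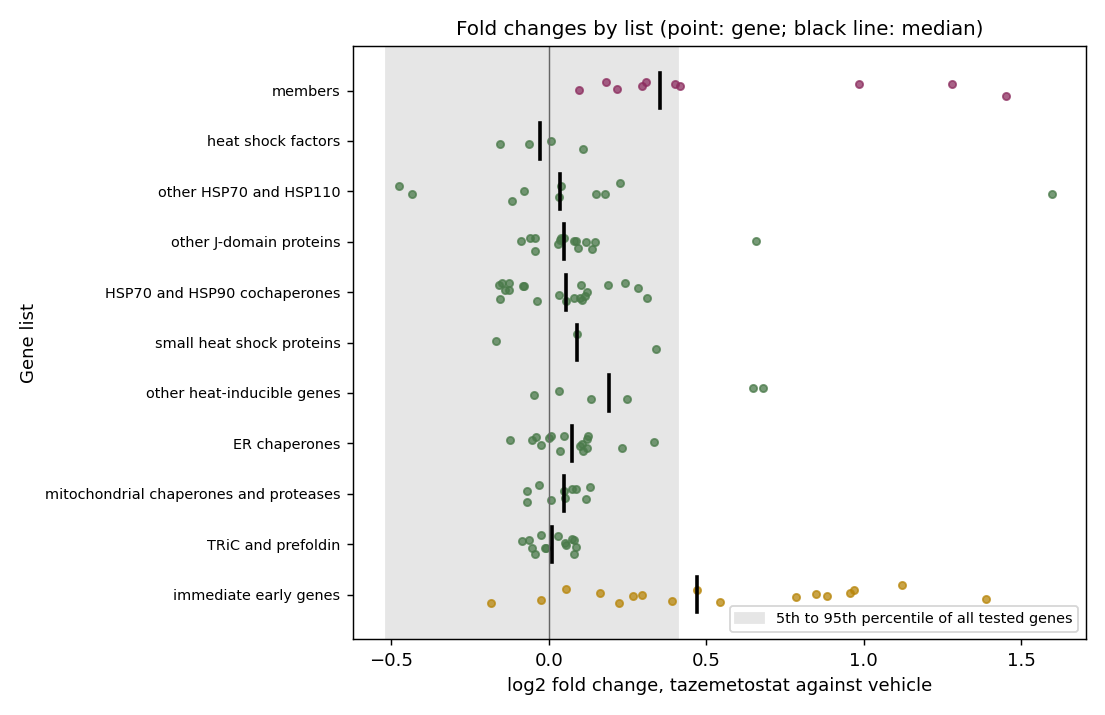
Log2 fold change of tazemetostat against vehicle (x axis) for every tested gene of the members and 10 other lists (y axis); points are genes, black lines the medians, and shading the 5th to 95th percentile of all tested genes. The members (median 0.35) and the immediate early genes (median 0.47) lie to the right, and the other chaperone lists centre between -0.03 and 0.19.

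Immediate early genes, which encode transcription factors and signalling proteins that cells switch on soon after many stimuli, were also mostly higher. Of the 17 tested, 15 were above 0 with a median of 0.47, against 48.1% of all genes above 0. At an unadjusted p under 0.05, 9 were higher in treated mice, against 3.34% of all genes. None was called at the adjusted threshold, where 0.0345% of all genes were. ATF3, a stress-induced transcription factor, was at 14.7, 14.7 and 10.8 CPM against 24.3, 23.8 and 26.1 CPM (edgeR log2 fold change 0.88, SE 0.131, adjusted p = 0.108), and ZFP36, which promotes decay of messenger RNA, was at 26.9 ± 3.92 against 39.2 ± 2.38 CPM. The mean log2 CPM of the list was 4.46, 5.04 and 4.996 in vehicle mice and 5.53, 5.51 and 5.15 in treated mice, so M_766 was lowest and M_774 the lowest of its group, as for the members. Immediate early genes and inducible chaperones can both respond to the dissociation and sorting of a tissue, which all these tumours went through, and the part of that handling in the difference was not tested.

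**Figure D5:**
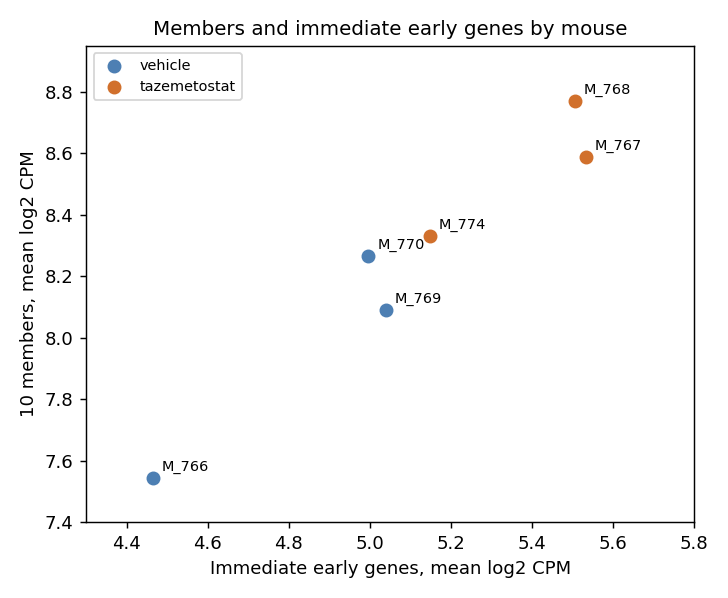
Mean log2 CPM of the 10 members (y axis) against that of the immediate early genes (x axis), 1 point per mouse, blue for vehicle and orange for tazemetostat. M_766 lies lowest on both axes, M_767 and M_768 highest, and M_769, M_770 and M_774 lie together between them.

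The genes whose pattern was most like the members were found by Pearson's r over the 18 libraries with the mean of the members' log2 CPM, among 12684 other genes at 2 CPM or more. In order they were ADM (0.981), HSPA6 (0.971), HAPLN3 (0.970), PIM2 (0.968), CD69 (0.964), LAT2 (0.958), JUN (0.953) and C3orf58 (0.951), and 54 genes had r above 0.9. The choice itself favours genes with the members' order of mice and their group difference, so the levels below only describe it. ADM, which encodes the peptide hormone adrenomedullin, was at 17.4, 32.7 and 39.4 CPM against 57.0, 94.9 and 44.7 CPM, with M_766 lowest and M_768 highest. CD69, an early activation marker of lymphocytes, was at 87.2, 154 and 155 CPM against 208, 223 and 179 CPM. JUN, an immediate early transcription factor, was at 102, 237 and 290 CPM against 472, 410 and 350 CPM. The likeness is over 6 mice with 3 libraries each, and leaving out M_768_C moved r to no lower than 0.951 for any of the 8.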

How the data were processed

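Whole-number read counts per gene were deposited by the authors, unnormalized judging by the file headers and values, beside gene lengths that equal the GENCODE 29 exon union for 10 of 10 members. Libraries were made with the NEB NEXT Ultra II kit, per the labels' protocols. The build hg38 and DESeq2 are named without a role or version, per the submitters' processing notes; the aligner, the counter, its strand setting and the meaning of the letters A to C: not given in the sources used here. Counts were summed per mouse (55712115 to 69816184 counts) and tested in R 4.3.3 by the quasi-likelihood F test of edgeR 4.0.16, after TMM scaling and a filterByExpr minimum of 10 counts, with p-values adjusted by Benjamini-Hochberg over 20301 genes and a threshold of 0.05. The steps were tested on simulated data. SE was approximated by dividing the absolute log2 fold change by the root of F, log2 CPM used a prior count of 2, and n counts mice. Promoters were read in Python 3.11.15. Alternatives used DESeq2 1.42.0, limma 3.58.1 (voom) and other factors, filters and sample sets. Members and lists were chosen with earlier results of these data known. Named genes were the members, the 2 of smallest p in each list, HSF1, HSF2 and the 8 most like the members; other genes were named after their values were seen.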

Additional observations from a re-analysis of the deposited data

Results flagged for a closer look

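Among 20 sets of 9 libraries (10 members in 2 groups), 5 had a highest library standing apart from the other 8 by a gap test for small samples, which chance does in about 1 in 20 sets; libraries of a mouse are not independent, so the rate can differ. In tazemetostat library M_767_C, HSPA1A was at 19.2 CPM, with the next library at 14.0 CPM, while HSPA1B was not apart there. HSPA1A took 11.5% of the counts of the HSPA1A and HSPA1B pair in that library (95% exact binomial interval 10.5% to 12.5%, counting error only) and 6.69% and 6.50% in the other libraries of the mouse. The other 4 were in library M_768_C: HSP90AB1 at 3548 CPM (next 3065), DNAJA1 at 583 CPM (next 484), HSPD1 at 1469 CPM (next 1150) and HSPE1 at 159 CPM (next 108). Between libraries of 1 mouse, the chi-square statistic over its degrees of freedom reached 67.3 with M_768_C and 4.81 without it.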

How the results depend on the processing

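Across 17 alternatives (16 for HSPA1A and HSPA1B, which the merged row replaces) no member's log2 fold change fell below 0; the widest ranges were 1.06 to 1.78 for HSPA1A, 0.90 to 1.56 for HSPA1B and 0.64 to 1.19 for DNAJB1, and HSP90AB1 ran from 0.01 to 0.24. The 7 genes called became 252 without the low-count filter, 119 with DESeq2 and 256 with the 18 libraries and the mouse as a random effect. Members called were 5, 0 and 4 in these, against 0. Without the filter the prior degrees of freedom were infinite, so the spread of single genes was not used and those calls are unreliable. The cause was not tested for DESeq2. With the 6 mice left out in turn, genes called ran from 0 (without M_768, M_769 or M_774) to 59 (without M_770), with 26 without M_766 and 1 without M_767; members called ran from 0 to 1, and their median from 0.26 to 0.49. Other scaling factors, a filter at 1 CPM, robust dispersion, limma-voom, leaving out M_768_C and merging HSPA1A with HSPA1B called 0 members. By DESeq2 and by limma-voom 6 members had an unadjusted p under 0.05. The share of all genes at that p was not computed for those fits, so no result is drawn from this count. No paired analysis was possible because the mice carry different numbers in the groups. HSPA1A rests on 28 to 462 counts per library. The length of 1 transcript per gene, tried after seeing the data, lowered the vehicle ratio of the HSPA1 pair to HSPA8 from 0.0929 to 0.0472.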
